A study of Drosophila melanogaster with 2 samples.

Results

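Peaks of the gfzf protein that sit between head-to-head genes are described here. A peak of the deposited optimal set was taken when its summit lay no more than 250 bp from a transcription start site (TSS) of a minus-strand protein-coding gene and within 250 bp of the TSS of a different, plus-strand protein-coding gene, with the minus-strand TSS at the lower coordinate. Of 5007 peaks on the dm6 build, 981 (19.6%) met this rule, 3128 lay at the promoter of a single gene, 79 lay at other arrangements of several promoters and 819 lay outside promoters. The 981 peaks occupied 922 distinct intervals. With each peak assigned to 1 gene pair, they marked 906 gene pairs with 1805 genes, because 75 pairs carried 2 peaks. The chromatin came from whole Drosophila melanogaster embryos of both sexes, collected from 0 to 24 h, of a transgenic line that stably carries gfzf with GFP at its C-terminus. Immunoprecipitation with anti-GFP was followed by sequencing (ChIP-seq) in 2 biological replicates, which form 1 group, and sonicated fragments measured 200 to 800 bp. The labels refer to a control experiment, which was not analysed here, and do not name the promoter of the transgene. Whole embryos mix many cell types, so a weak peak in all cells and a strong peak in a few cells cannot be told apart.

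Head-to-head genes whose start sites lie close together share 1 stretch of promoter sequence that is read in both directions. Such pairs are common in the compact fly genome and often serve functions that every cell needs. Fly promoters of this kind frequently lack a TATA box and carry Motif 1, the site of the factor M1BP, or the DNA replication-related element (DRE), the site of DREF and of the insulator protein BEAF-32. The gfzf protein combines zinc fingers of the FLYWCH type with a domain related to glutathione S-transferases. In cultured fly cells it is known as a coactivator that works with M1BP where Motif 1 is present.

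The stretches between the start sites of a few pairs show what the peaks lie on. The first 3 belong to the strongest peaks, and the others to the strongest peak that held a given motif within 50 bp of the summit. Only stretches of 40 to 300 bp with no annotated exon base and off a chromosome arm whose sequence is not reported here were eligible, which left 582 of the 981 peaks. Each is the plus strand of dm6 from the base after the minus-strand TSS to the base before the plus-strand TSS, so the first gene named is read leftwards from the left end and the second rightwards from the right end. Capitals mark the Motif 1 core (GGTCACAC on either strand), the DRE (TATCGATA), Motif 6, Motif 7, the E-box (CAGCTG) and the TATA sequence (TATAAA). Motifs 6 and 7 are degenerate and are given by name only.
alt and CG7655 (chr3R:17682516-17682668): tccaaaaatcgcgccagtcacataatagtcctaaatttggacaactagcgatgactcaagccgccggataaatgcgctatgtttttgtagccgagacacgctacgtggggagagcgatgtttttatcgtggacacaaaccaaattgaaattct
CG16903 and Unc-76 (chrX:2080406-2080609): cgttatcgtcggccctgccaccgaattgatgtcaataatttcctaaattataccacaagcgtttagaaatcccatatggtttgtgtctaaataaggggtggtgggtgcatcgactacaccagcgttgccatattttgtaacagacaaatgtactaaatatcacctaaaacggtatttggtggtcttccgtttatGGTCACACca
Jupiter and CG14710 (chr3R:11619907-11620089): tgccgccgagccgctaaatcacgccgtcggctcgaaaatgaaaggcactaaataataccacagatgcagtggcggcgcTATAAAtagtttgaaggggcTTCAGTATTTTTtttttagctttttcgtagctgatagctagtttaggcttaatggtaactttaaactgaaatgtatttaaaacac
eIF2Bepsilon and Ocrl (chrX:1922875-1922980): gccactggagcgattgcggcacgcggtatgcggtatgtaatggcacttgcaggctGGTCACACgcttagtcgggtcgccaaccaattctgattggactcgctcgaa
Syx18 and atl (chr3R:24625563-24625670): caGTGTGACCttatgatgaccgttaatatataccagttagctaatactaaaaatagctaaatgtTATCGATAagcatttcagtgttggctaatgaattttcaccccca
CG9356 and CG8135 (chr3R:9404270-9404384): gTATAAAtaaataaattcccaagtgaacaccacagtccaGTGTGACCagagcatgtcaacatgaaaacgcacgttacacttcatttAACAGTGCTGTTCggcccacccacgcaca
msl-2 and ND-PDSW (chr2L:3466113-3466156): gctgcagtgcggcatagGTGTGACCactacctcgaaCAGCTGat

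The stretch of alt and CG7655, which lay under the strongest peak of the whole set, was 153 bp long and held none of these motifs. Its summit fell on base 85, near the middle. The 204 bp between CG16903 and Unc-76, an axonal transport adaptor gene, held a single Motif 1 core at the far right, 103 bp from the summit and next to the start site of Unc-76. Between Jupiter, which encodes a microtubule-associated protein, and CG14710, the TATA sequence lay on the summit itself and Motif 6 lay 23 bp to its right. The core between eIF2Bepsilon, a subunit gene of a translation initiation factor, and Ocrl, a phosphoinositide phosphatase gene, was centred 14 bp left of the summit. Between Syx18, a SNARE gene, and atl, the atlastin gene, the DRE was centred 13 bp left of the summit, whereas the core lay 75 bp to its left, beside the start site of Syx18. The pair CG9356 and CG8135 combined a core, a Motif 7 and a TATA sequence in 115 bp. The 44 bp between msl-2, a dosage compensation gene, and ND-PDSW, a subunit gene of respiratory complex I, held a core 1 bp from the summit and an E-box 16 bp to its right.

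The signal is the authors' own peak score, on a scale that the sources do not define, so it was compared only within 1 list. Signals in the optimal set ranged from 88.9 to 15685 among the 981 peaks, with a median of 606. The pair alt and CG7655 stood first, with a signal of 9469 in replicate 1 and 6246 in replicate 2. CG16903 and Unc-76 followed with 7675 and 4692. Both ranked among the first 3 peaks of each replicate's own list. Jupiter and CG14710 had 6899 and 4608. CG13484 and the formin gene Frl had 6848 in replicate 1 and 4650.1 in replicate 2, and Atg8a, a ubiquitin-like autophagy gene, with BTBD9 had 6431 and 4361. All 5 of these summits lay between the start sites, and that of CG13484 and Frl lay 68 bp from either one.

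The next 5 peaks stood at pairs with genes of varied functions. CG6693 and RpL3, a large ribosomal subunit gene, had a signal of 5668 in replicate 1 and 3718 in replicate 2. ATPsynF, an ATP synthase subunit gene, with CG3548 had 5075 and 3289. The values for smg, which encodes the translational repressor Smaug, with CG5087 were 4984 and 3318. These 3 pairs ranked 11 to 21 in both replicates. Nup98-96, a nuclear pore gene, with mbc, which encodes an activator of the GTPase Rac, had 4688 and 3328. The last of the 10, sigmar with l(2)dtl, which encodes the Cdt2 subunit of a ubiquitin ligase, had 4675 and 3221.

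The 5 weakest peaks had signals from 88.9 to 90.9. They lay between nocte and CG2889, between boi and z, the zeste gene, between CG5645 and Atg12, an autophagy gene, between D12 and Chrac-14, a chromatin remodelling subunit gene, and between CG5412 and TFAM, which encodes a mitochondrial DNA packaging protein. Their ranks ran from 4740 to 5400 in replicate 1 and from 5111 to 6038 in replicate 2. Thus genes of one pathway could stand at either end of the range, as Atg8a and Atg12 did.

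Nearly every peak was present in both replicates. A summit within 100 bp was found in both lists for 962 of the 981 peaks (98.1%), against 4865 of all 5007 (97.2%). Both lists went into the filter that chose the optimal set, so these shares are conditioned on it. After each signal was divided by the median of its replicate over all linked peaks, the log2 ratio of replicate 1 to replicate 2 had a median of -0.05 and an SD of 0.38 across the 962 peaks. It exceeded 1 in size at 20 of them. Across all linked peaks its SD was 0.44. Spearman's rho between the replicates was 0.979 over the 962 peaks, which share libraries and are not independent.

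**Figure D1:**
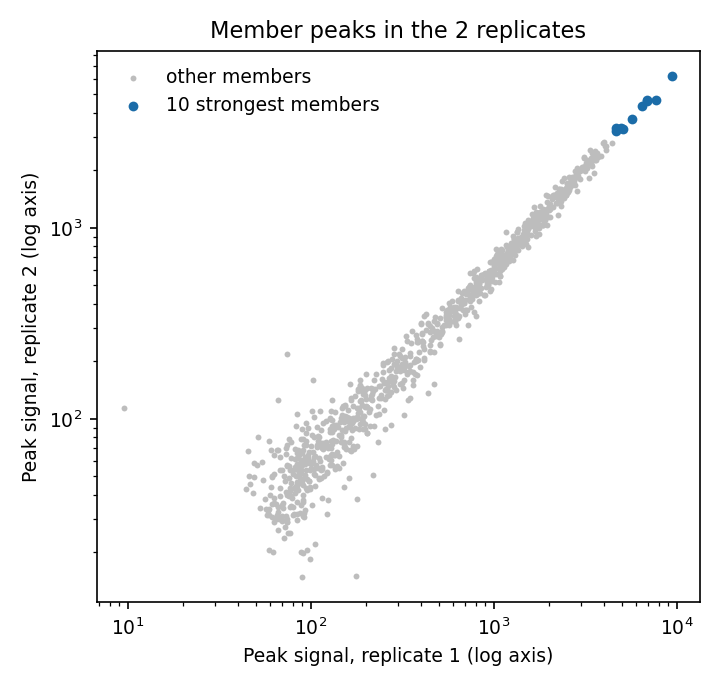
Peak signal of the peaks at divergent pairs in replicate 1 (x axis) and replicate 2 (y axis), on the authors' scale and on log axes, with 1 point for each of the 962 peaks linked to both lists. The 10 strongest peaks (blue) lie at the upper end of both axes, and the scatter is wider at low signals.

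A few peaks departed from this. The widest rank difference was at the right-hand summit of Smyd4-1 and Urod, a heme synthesis gene, which ranked 26819 in replicate 1 (signal 9.6) and 2775 in replicate 2 (signal 114). The left-hand summit of the same pair, with a signal of 431 in the optimal set, ranked 2292 and 2556. CG5377 and Nrx-1, the neurexin gene, had 176 in replicate 1 and 15.1 in replicate 2, ranks 2835 and 9864. The next 3 were CG15653 and mRpL54, CG31955 and CG2818, and ssh and Nmnat, all with optimal signals from 102 to 108 and a weaker rank in replicate 2. Of the 19 peaks without a link to both replicates, the strongest, at TppII and ND-MWFE (signal 5176), had a replicate 2 summit at rank 133 but no replicate 1 summit within 100 bp.

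Close pairs carried a shared summit most often. The annotation held 1995 divergent protein-coding gene pairs with start sites up to 500 bp apart, and 979 (49.1%) had a summit within 250 bp of both. This count exceeds 906 because 45 peaks met the rule for more than 1 gene pair. Distances are given in ranges of 100 bp, each with its upper limit included. Of pairs up to 100 bp apart, 324 of 429 (75.5%) shared a summit. The share was 58.5% of 357 pairs between 100 and 200 bp and 62.0% of 542 pairs between 200 and 300 bp. The first of these ranges holds 38 of the 42 pairs of repeated histone genes. None of the 42 had a summit near either gene even in the relaxed list. How reads from repeated copies were placed is not stated, so this is not read as absence of binding. Without the repeats the share of that range was 209 of 319 pairs (65.5%). Shared summits were found at 23.5% of 400 pairs between 300 and 400 bp and at 5.99% of 267 pairs between 400 and 500 bp. The occupied pairs include 21 of the mod(mdg4) locus, with narrowest start site distances of 121 or 319 bp, which 1 peak supplied. These pairs were kept in every share given here, and they raise the shares of their 2 ranges. The rule itself narrows with distance, since a summit between start sites 500 bp apart can meet it only at the midpoint. A summit near at least 1 of the start sites, which has no such limit, was found for 78.1%, 62.2%, 72.7%, 71.0% and 67.4% of pairs in the same order. Without the histone repeats the first 2 of these were 78.8% and 69.6%.

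**Figure D2:**
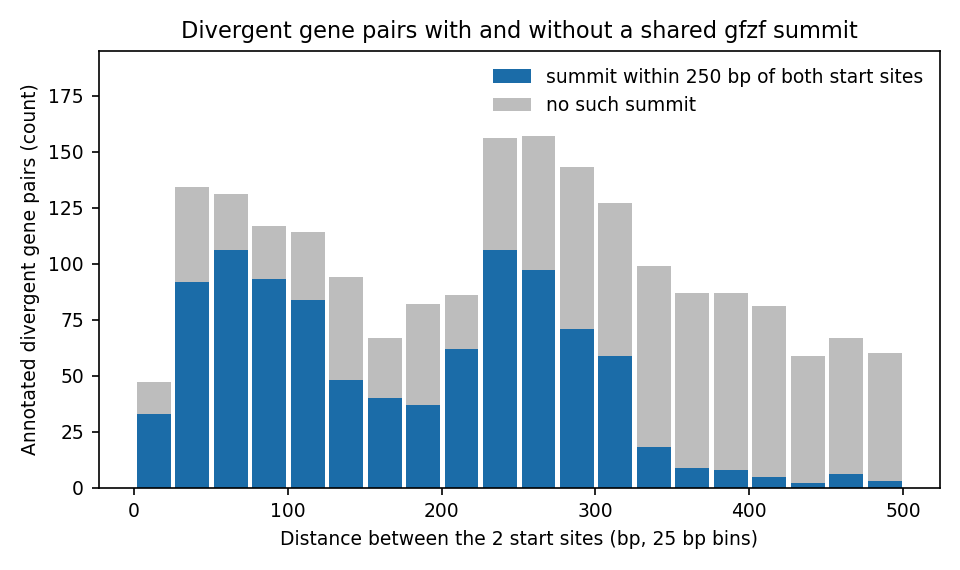
Number of annotated divergent gene pairs (y axis) by the distance between their start sites (x axis, bp, in bins of 25 bp), split into pairs with a summit within 250 bp of both start sites (blue) and pairs without (grey). Pairs gather at 26 to 125 bp and again at 226 to 325 bp, and the blue share is 46.5% just above 300 bp and 18.2% at 326 to 350 bp. Several of the blue pairs just above 300 bp belong to the mod(mdg4) locus and rest on a single peak.

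Distances were unevenly spread among all annotated pairs. Bins of 25 bp held 134 pairs at 26 to 50 bp, 67 at 151 to 175 bp and 157 at 251 to 275 bp. The peaks themselves, measured between the start sites assigned to each summit, had a median distance of 192 bp, with quartiles of 82.0 and 258 bp. At the short end, CG4730 and CG5039, and Atg6, an autophagy gene, with Pisd, a phospholipid synthesis gene, had start sites 1 bp apart, and Zpr1 and CG44532 had theirs 2 bp apart. Next came amx with Dsor1, which encodes the MAP kinase kinase of the Ras pathway, and CG3032 with CG4593, both 6 bp apart. The signals of these 5 spread from 161 to 2606. At the long end stood CG13625 and mld (493 bp), PGRP-LE and sd (490 bp), CG6425 and Yif1 (482 bp), Mhcl and Akt, a growth kinase gene (467 bp), and Mrtf and Non2 (463 bp), with signals from 132 to 581.

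Genes in such pairs were marked more often than genes outside them. Of 3815 genes in annotated divergent pairs, 2416 (63.3%) had a summit within 250 bp of a TSS, against 2193 of 10153 genes outside pairs (21.6%) and 4609 of all 13968 protein-coding genes (33.0%). No test was made over genes, and 2 replicates of 1 group allow none over samples. A single summit can count for both genes of a pair, whereas elsewhere it mostly counts for only 1 gene. In the relaxed pooled list of 30000 lines the shares were 80.1% of genes in pairs and 40.8% of genes outside. Of the pairs, 1087 had both genes marked, 360 had 1 and 548 had neither. In 108 pairs both genes were marked although no summit served both at once, 45 of them between 300 and 400 bp apart and 57 between 400 and 500 bp.

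Close distance alone did not come with a summit in every case. The 5 shortest unoccupied pairs were CG11710 and mal (2 bp), CG9263 and CG16853 (5 bp), CG7246 and HP1b, a heterochromatin protein 1 paralog (6 bp), CG9921 and Dsp1, an HMG-box gene (12 bp), and Ctu1 and CG8777 (14 bp). None of these had an optimal summit within 250 bp of either start site. The pairs of HP1b, Dsp1 and Ctu1 had one near both in the relaxed pooled list, and those of mal and CG9263 did not. In all, 232 pairs had a summit near both start sites in the relaxed list only.

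Most summits lay between the start sites and close to one of them. Of the 981 summits, 809 (82.5%) lay between the start sites or on one, 83 lay inside the minus-strand gene and 89 inside the plus-strand gene. The nearer start site was a median of 43.0 bp away (quartiles 20 and 76.0) and the farther one 144 bp (72.0 and 210). Counted upstream of the nearer gene, the summit stood at a median of 35.0 bp (quartiles 10 and 69.0), against 37.0 bp (10 and 70.0) at single-gene promoters. It was upstream in 81.9% of peaks at pairs and in 81.5% of single-gene peaks. The offset from the nearer start site thus differed by a median of a few bp between the peaks at pairs and those at single genes, far less than the spread within either.

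The rule itself sets much of the placement. Summits between start sites 250 bp or more apart must lie between them to meet it, and below that the part of the allowed window that lies between the start sites widens with their distance, so no trend is read from these shares. Up to 100 bp, 59.7% of 313 summits lay between the start sites and the nearer one was a median of 20 bp away. The values were 83.8% of 197 and 43.0 bp between 100 and 200 bp, and 96.3% of 376 and 55.5 bp between 200 and 300 bp. All 78 summits between 300 and 400 bp lay between the start sites. The median distance from the midpoint was 21.5 bp, 32.0 bp and 75.8 bp in the first 3 ranges.

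**Figure D3:**
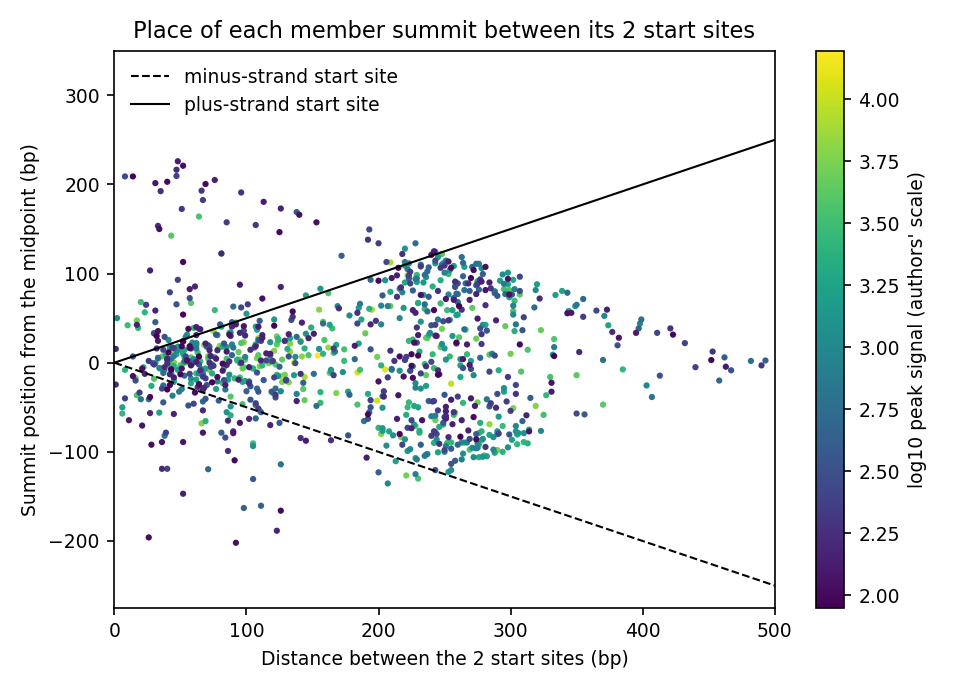
Position of each of the 981 summits from the midpoint of its 2 start sites (y axis, bp, positive towards the plus-strand gene) against the distance between the start sites (x axis, bp), coloured by log10 signal. Lines mark the start sites. Summits of short pairs lie both between and beyond the start sites, and between 200 and 300 bp (n = 376) they spread from one start site to the other. The rule bars the outer right of the plot.

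Summits stood slightly nearer to plus-strand genes. The nearer gene was on the plus strand for 530 peaks, on the minus strand for 447 and at equal distance for 4, and the median summit lay 4.50 bp right of the midpoint. At single-gene promoters the summit was a median of 41.0 bp upstream of the 1491 minus-strand start sites and 33.0 bp upstream of the 1637 plus-strand ones. The rightward shift was thus also present at single genes, and it was not tested.

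A second summit was listed at 75 pairs. In 63 the left summit was nearer to the minus-strand start site and the right one nearer to the plus-strand start site, and in 49 both lay within 100 bp of those sites. In the others at least 1 summit lay farther off. The rule fixes much of the count of 63. Summits at least 199 bp apart and within 250 bp of both start sites mostly fall on either side of the midpoint. The count is therefore not read as a separate summit for each gene. The summits were a median of 203 bp apart (upper quartile 208, widest gap 257 bp), and no summits of the whole optimal set were closer than 199 bp. In 64 of the 75 pairs both shared 1 deposited interval. The left summit was the stronger in all 75 pairs. It was also the stronger in 709 of 727 neighbouring summits under 300 bp apart in the whole optimal set (97.5%), against 106 of 211 neighbours 300 to 1000 bp apart (50.2%). In the relaxed lists of replicates 1 and 2 the shares under 300 bp were 89.3% and 88.0%. The order of strength within these pairs is therefore a property of close summits throughout the deposited lists, and it is not read as a difference between the genes.

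The values of the strongest such pairs are given with that limit. At CG5823 and P5cr-2, a proline synthesis gene, with start sites 228 bp apart, the left summit had 2474 in replicate 1 and 1576 in replicate 2, and the right one 440 and 137. At CG5742 and adp (294 bp) the left summit had 1499 in replicate 1 and 938 in replicate 2, and the right one 700 and 354. At CG11723 and Tbcd, a tubulin folding gene (243 bp), the left one had 1291 and 878, and the right one 518 and 279. These right-hand summits were lower by different factors. At Caf1-105 and CG11777 (76 bp) the left one had 1345 and 812, and the right one had 90.1 in replicate 1 and no linked summit in replicate 2. CG9588 and Lkb1, a kinase gene, had start sites only 8 bp apart, and the right-hand summit lay 205 bp inside Lkb1. The left one had 1593 in replicate 1 and 914 in replicate 2, and the right one had no linked summit in replicate 1 and 43.5 in replicate 2.

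Peaks at divergent pairs had somewhat higher signals than peaks at single genes. Their median was 606 (quartiles 197 and 1977), against 481 (165 and 1698) for the 3128 single-gene peaks and 361 for all 5007. The ratio of medians was 1.26 (log2 0.33), and it was 1.22 with replicate 1's signals and 1.24 with replicate 2's. The median rank was 2080 against 2252 in replicate 1, and 2062 against 2242 in replicate 2. The quartiles overlapped over most of their range, and no test was made over peaks. The log2 ratio was 0.12 when summits had to lie within 100 bp of the start sites and 0.16 among the 2503 strongest lines. With the rule applied to the strongest lines of 1 replicate alone, it was 0.21 without replicate 2 and 0.38 without replicate 1. Intervals were a median of 675 bp wide, against 618 bp at single genes. Of the 1000 strongest peaks 260 lay at divergent pairs, 26.4% of the promoter peaks among them, against 23.4% of promoter peaks in the whole set.

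Signal varied with the distance between the start sites. The median was 431 up to 100 bp, 584 between 100 and 200 bp, 764 between 200 and 300 bp and 875 between 300 and 400 bp, and it was 268 for the 17 peaks beyond 400 bp. The median rank moved the same way in each replicate. It was 2346, 2082, 1896, 1819 and 2784 in replicate 1, and 2350.0, 2127, 1838, 1724 and 2896 in replicate 2. Quartiles were broad throughout, for example 158 and 1977 up to 100 bp and 225 and 1763 between 200 and 300 bp. The rule admits summits beyond the start sites mainly at short distances, so the ranges also differ in placement. Summits between the start sites made up 59.7%, 83.8%, 96.3% and 100% of the first 4 ranges. The part of the signal difference that goes with placement was not tested.

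**Figure D4:**
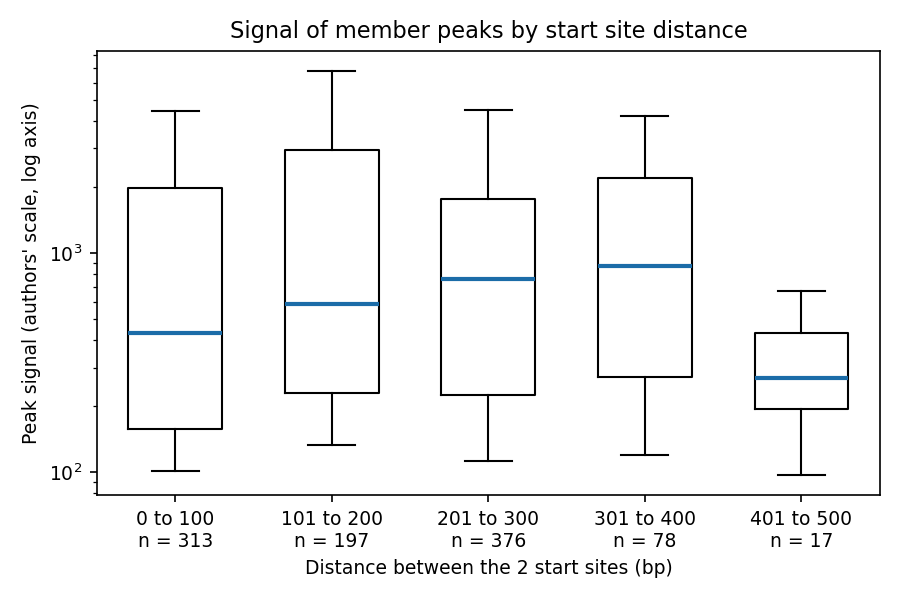
Signal of peaks at divergent pairs (y axis, authors' scale, log axis) by distance between the start sites (x axis, bp). Boxes span the quartiles, blue lines are medians and whiskers reach the 5th and 95th percentiles. The boxes of the first 4 ranges overlap, with medians from 431 to 875.

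Where the summit lay within the pair went with signal between 100 and 200 bp, but not in the same way between 200 and 300 bp. Summits were called central when they lay in the inner part of the stretch, up to a sixth of its length on either side of the midpoint, a division made after the values were seen. The remaining summits include those beyond the start sites and summits of pairs that carried a second one, which were not set apart. Between 100 and 200 bp, 72 central summits had a median signal of 1907, against 437 for 125 others, and 37 of the 72 ranked among the 1000 strongest peaks, against 30 of the 125. Their median ranks were 949 and 2345 in replicate 1, and 1016 and 2477 in replicate 2. Between 200 and 300 bp the 98 central and 278 other summits had medians of 646 and 778. Centrality thus went with a higher median signal in the shorter of these ranges and not in the longer one, and the difference between the ranges was not tested.

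Motif 1 was found at fewer peaks of divergent pairs than of single genes. The core occurred within 50 bp of 112 of 981 summits (11.4%), against 466 of 3128 single-gene summits (14.9%) and 12.8% of all peaks. Matches counted on either strand, and the full Motif 1 consensus, which contains the core, occurred at 6.73%, 7.96% and 6.95%. With 100 bp on each side the core occurred at 19.3% of peaks at pairs and 20.8% of single-gene peaks. Among the 2503 strongest lines it occurred within 50 bp of 17.7% of 587 peaks at pairs and 24.7% of 1730 single-gene peaks. Motif 6 occurred at 3.36% of peaks at pairs, 3.71% of single-gene peaks and 3.46% of all. These are shares of sequence matches, and none was tested.

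The other elements differed between the classes by amounts that depended on the window. The DRE (TATCGATA, its own reverse complement) lay within 50 bp of 9.07% of summits at pairs, 9.49% of single-gene summits and 8.53% of all. The sign of this difference turned with the window and with each replicate's own list. Motif 7 occurred at 8.05%, 7.64% and 7.01%, and the E-box of Motif 5 (CAGCTG, also a palindrome) at 10.1%, 9.62% and 8.79%. With 100 bp on each side Motif 7 occurred at 16.0% of peaks at pairs, 12.1% of single-gene peaks and 11.9% of all, and the E-box at 19.4%, 15.4% and 14.9%. The Initiator occurred at 7.34%, 8.09% and 8.13%. The GAGA factor sequence (GAGAGAG) was found at 3 peaks of pairs (0.306%, against 0.831% at single genes and 0.879% of all). The Zelda site (CAGGTAG) was found at 5 (0.510%, against 0.384% and 0.439%). At least 1 of the Motif 1 core, DRE, Motif 6 and Motif 7 was present at 28.3% of summits at pairs, 31.9% at single genes and 28.5% of all, and the direction turned with 100 bp on each side, at 46.7%, 43.4% and 40.5%.

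**Figure D5:**
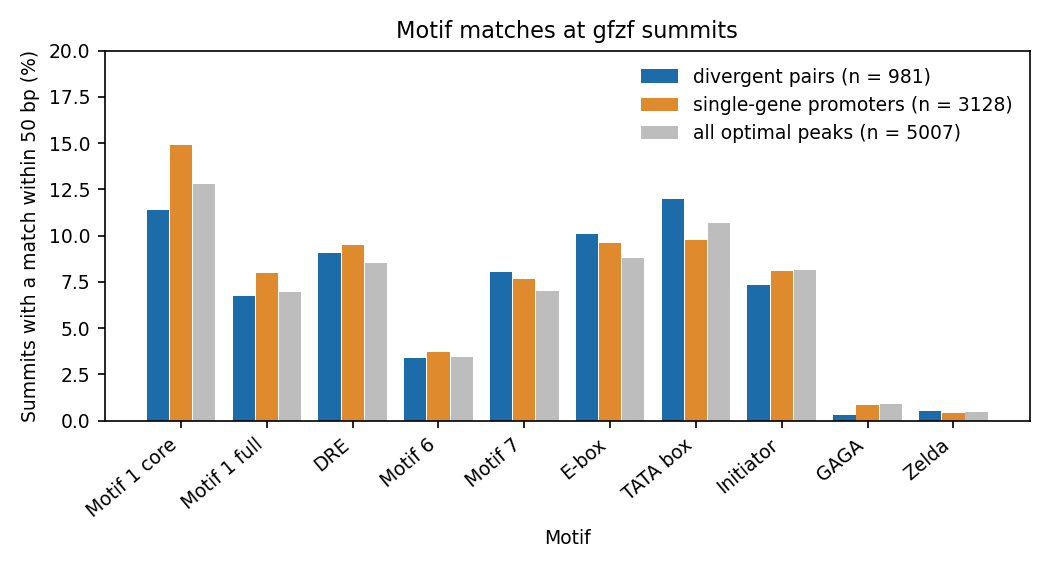
Share of summits (y axis, %) with a match on either strand within 50 bp, for each motif (x axis), at divergent pairs (blue, n = 981), at single-gene promoters (orange, n = 3128) and in all optimal peaks (grey, n = 5007). The Motif 1 core stands at 11.4% of the blue and 14.9% of the orange summits, and the TATA sequence at 12% and 9.75%.

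The TATA sequence and the base composition changed with the distance between the start sites. TATAAA lay within 50 bp of 12% of summits at pairs, against 9.75% at single genes and 10.7% of all. It was present at 7.03% up to 100 bp, 8.63% between 100 and 200 bp, 16.5% between 200 and 300 bp and 15.4% between 300 and 400 bp. The median GC content of the same windows was 44.6%, 41.6%, 37.6% and 33.7% in that order, and the part of the TATAAA shares that goes with it was not tested. The Motif 1 core ran the other way, with 14.4%, 12.7%, 9.84% and 6.41%, and the DRE was present at 13.7%, 9.14%, 6.12% and 6.41%. In these ranges the nearer start site was a median of 20, 43.0, 55.5 and 112 bp from the summit. The 50 bp windows thus reached a start site less often as the distance grew. The part of the motif shares that goes with this was not tested. In pairs between 200 and 300 bp apart, central windows had a median GC content of 29.2% and 0 of 98 held the core, whereas the other 278 had 38.6% and 37 held it. The nearer start site was a median of 104 bp from the central summits, beyond the 50 bp window, and 43.5 bp from the others. TATAAA was present in 23.5% of these central windows and in 14.0% of the others.

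Peaks with Motif 1 or Motif 6 had higher signals than the other peaks at pairs, and peaks with the DRE or Motif 7 lower ones. The median was 1425 with the Motif 1 core and 482 without it, 1968 with Motif 6 and 564 without, 289 with the DRE and 673 without, and 311 with Motif 7 and 644 without. The ratio for the core was 2.96 at pairs, against 4.14 at single genes, and for the DRE it was 0.430 against 0.492. Peaks with the core had a median rank of 1282 in replicate 1 and 1272 in replicate 2, those with the DRE 2812 and 2828. Of the 10 strongest peaks, 1 held any of these 4 elements within 50 bp and 5 did within 100 bp. Of the first 100, 32 held one within 50 bp and 54 within 100 bp.

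The strongest peaks with each element gave named examples. The Motif 1 core was found at eIF2Bepsilon and Ocrl (7801), at Top3beta, a topoisomerase gene, with wuho (6734) and at bol, the germline RNA-binding gene boule, with Dhpr (6109). The DRE was found at Syx18 and atl (6644), at Prosbeta1 and Rrp42 (6101) and at Cpes and CG5569 (5699.6). Motif 6 was found at Jupiter and CG14710 (11497), at Sema1b, a semaphorin gene, with HPS4 (7203) and again at bol and Dhpr. Motif 7 was found at CG9356 and CG8135 (6013), at Vha55, a proton pump subunit gene, with Snx3 (5883) and at put, an activin and BMP receptor gene, with His4r (4430.3). These values are signals in the optimal set.

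The Motif 1 core pointed along the nearer gene more often than against it. The 112 peaks held 118 copies, and 82 (69.5%) lay with GGTCACAC on the coding strand of the gene whose start site was nearer. At single-gene promoters this held for 343 of 474 copies (72.4%). Copies on the coding strand had a median place 1.5 bp downstream of the start site (upstream offset -1.5 bp) in both classes. Copies on the other strand had a median of 21.0 bp upstream at pairs and 48.5 bp upstream at single genes. At a pair such a copy is on the coding strand of the other gene, and its distance is to the nearer of 2 start sites. These 2 medians are therefore not directly comparable. At eIF2Bepsilon and Ocrl the core lay 47.5 bp upstream of Ocrl on its coding strand, and at msl-2 and ND-PDSW it lay 21.5 bp upstream of msl-2 on its coding strand. At Top3beta and wuho it lay 28.5 bp upstream of Top3beta, on the opposite strand.

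Only 6 peaks at pairs held 2 copies of the core within 50 bp. They were Zwilch, a kinetochore gene, with CG1542 (signal 3417), Klc, the kinesin light chain gene, with CG10984 (3124), l(2)34Fd with Rab14 (3018), DCP1, an mRNA decapping gene, with DNAlig1, a DNA ligase gene (2388), vret with HP1c (2165), and CG6418 with Blos4 (2060.2). Their signals all exceeded the median of 1425 for peaks with the core. The other 106 peaks with the core held a single copy within 50 bp of the summit, and copies farther off were not counted here.

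Genes for translation and energy supply had a summit at a promoter more often than protein-coding genes as a whole. Of 92 cytosolic ribosomal protein genes 74 (80.4%) had a summit at a promoter, against 33.0% of all protein-coding genes, and 25 of them shared theirs with a divergent neighbour. Over all 13968 protein-coding genes 1805 (12.9%) shared a summit in this way, and among the 3815 genes in annotated divergent pairs 47.3% did. Sharing was counted, here and in every list, only for the 1 pair assigned to each peak. Further genes at the 45 peaks that met the rule for more than 1 gene pair were left out. These shares and counts are therefore lower limits. Such pairs held 36 cytosolic and 53 mitochondrial ribosomal protein, 38 respiratory chain and ATP synthase, 22 translation factor and 20 synthetase genes. The sharing counts of these lists are to be set against these numbers. Mitochondrial ribosomal protein genes (26 of 53) and synthetase genes (9 of 20) shared a summit at close to the 47.3% of all such genes. The other lists lay above it by differing amounts, which were not tested. Besides RpL3, the strongest were RpL14 with Nelf-E, a subunit gene of the pausing factor NELF (5818), and RpS25 with CG4820 (5358). The median over the 26 peaks was 1384, against 606 for all peaks at pairs. Of 73 mitochondrial ribosomal protein genes 49 had a summit and 26 shared it, led by mRpS16 with cg (5453) and mRpL55 with ATPsynD (4757), but the median over their 27 peaks was 335. Of 80 respiratory chain and ATP synthase genes 50 had a summit and 23 shared it (median 837). Of 54 translation factor genes 37 had one and 12 shared it (median 157), with eIF2Bepsilon far above eEF1alpha1 with ERp60 (2852) and eIF2Bdelta with roh (2079). Of 32 aminoacyl-tRNA synthetase genes 16 had one and 9 shared it (median 495), led by GlnRS with RIOK2 (3295) and LysRS with Hecw (2840.3).

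Genes of protein turnover and folding followed. Annotated divergent pairs, in which 47.3% of all genes shared a summit as part of an assigned pair, held 24 proteasome, 25 autophagy and V-ATPase, 10 chaperone and 4 import genes. Sharing is counted here in the same way. Of 48 proteasome genes 30 had a summit and 16 shared it (median signal 649), led by Prosbeta1 with the exosome gene Rrp42 (6101), Rpn2 with Slbp, which encodes a histone mRNA binding protein (5074), and Prosbeta5 with dgo (4641). Of 53 autophagy and V-ATPase genes 28 had one and 12 shared it (median 748), Atg8a being the highest. Chaperone genes were marked in 13 of 36 cases (36.1%, against 33.0% of all genes). Among them only CCT4, a chaperonin subunit gene, with CG6153 (2783) was in the pair assigned to a shared summit. Mitochondrial import genes were marked in 6 of 15 cases, with Tim10 and Ppcdc (2507) sharing one.

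Nuclear functions were represented by transcription, splicing, pore and replication genes. Over all protein-coding genes 33.0% had a summit and 12.9% shared one, and among genes in annotated divergent pairs 47.3% shared one. Such pairs held 17 Mediator, 21 polymerase II and general factor, 14 nuclear pore, 19 splicing and 11 replication and repair genes. The sharing counts below use only the 1 pair assigned to each peak and are to be set against these numbers. Genes such as MED9 and Polr2D, which met the rule at a peak assigned to another pair, are not counted as sharing. Of 25 Mediator genes 21 had a summit and 11 shared it (median signal 982), led by MED10 with PDCD-5 (4757), MED23 with Gmer (3915) and MED27 with elm (2920.0). Of 37 polymerase II and general factor genes 25 had one and 11 shared it (median 404), led by TfIIA-L with pll, the kinase gene pelle (4155), and Taf12 with Ho, a heme oxygenase gene (3865). Of 21 nuclear pore genes 18 had one and 9 shared it, with a median of 1468. Nup98-96 led them, before Nup37 with RpS27 (4634) and Nup75 with CG42518 (3622). Splicing genes were marked in 20 of 29 cases and shared in 13 (median 693), led by SmD2 with CG18048 (2521). Replication and repair genes were marked in 18 of 24 cases and shared in 7 (median 981), led by Orc5 with Arpc1 (3749) and RfC38 with CG4751 (2973).

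The remaining lists covered trafficking and the cell cycle. Annotated divergent pairs, in which 47.3% of all genes shared a summit as part of an assigned pair, held 45 vesicle trafficking and 9 cell cycle genes. Sharing is counted here in the same way. Of 84 vesicle trafficking genes 53 had a summit and 27 shared it, with a median signal of 226. Rab5, an endosomal GTPase gene, with Axud1 (5145) and Vps60 with anchor (5112) stood far above that. Of 25 cell cycle genes 18 had one and 3 shared it, which is near the 12.9% of all genes, namely CycG with Med, a gene of BMP signalling (5980.3), Cdk7 with snf (524) and Cdk5 with CG30466 (96.2). Of 10 exosome and ribosomal RNA processing genes 5 had a summit. The lists were matched by symbol, so they may miss members with other names.

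Leaving aside genes known by a CG number alone, 2 peaks had both genes in 1 list. Of all 1995 annotated divergent pairs 3 did, so the lists leave little to compare. The first was Rrp5 and Dis3, an rRNA processing gene and the catalytic exosome subunit gene, on 3R with start sites 117 bp apart and a signal of 5423, ranked 164 in replicate 1 and 108 in replicate 2. The second was Taf10b and Taf10, which encode a pair of related TFIID subunits, on 2L with start sites 45 bp apart and a signal of 131, ranked 4637 and 3698. Of the 1805 genes 563 were known by a CG number alone, and 114 peaks had such genes on both sides.

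Several peaks touched more than a simple pair. At 7 peaks 3 or more gene pairs met the rule. The extreme was a peak of signal 246 on 3R that was counted for 21 pairs among 10 annotated genes of the mod(mdg4) locus, whose transcripts are known to be joined by trans-splicing and are annotated as separate pre-mod(mdg4) genes. The start sites there need not be independent promoters. Non-coding start sites lay within 250 bp of 9 peaks, among them the long non-coding RNA CR43958 at Tdg and Pur-alpha on chromosome 4 (signal 3696).

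Every major chromosome arm carried such peaks. They made up 23.0% of the optimal peaks on 3R (267 of 1163), 19.4% on 2L, 18.9% on 2R and on 3L, 17.9% on X and 6.06% on chromosome 4 (4 of 66). Chromosome 4 holds only 7 annotated divergent pairs, and 4 of them were occupied. The share of annotated pairs with a shared summit was 41.0% on 2L, 45.4% on 3L, 52.0% on 3R, 52.5% on 2R and 54.7% on X. All 42 pairs of repeated histone genes lie on 2L and count there as unoccupied, which is not read as absence of binding. They lower the share of 2L, so its place below the other arms is not read as a difference in binding. The share of 3R includes the 21 occupied pairs of the mod(mdg4) locus, which rest on the same peak. It also includes further pairs of that locus without a shared summit.

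At the edge of the rule, the farther start site was exactly 250 bp away at CG8031 and CtBP (signal 1837), at IFT52 and COX5B (1507) and at eff and jvl (621). It was 251 bp away, and the peak therefore left out, at Pis and Hap40 (1486) and at CG34015 and eIF4H1 (1255), among others. The signals on either side of the limit overlapped.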

How the data were processed

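Each deposited list is a narrowPeak table on dm6, per the file headers and inventory. The authors deposited a relaxed list of 30000 lines for each replicate and for the pool, and an optimal set that passed their irreproducible discovery rate (IDR) filter. The deposited signal is the peak caller's own value, and the deposited −log10 q-value was not used for any result. The aligner, peak caller and IDR settings, and the depth, are not stated in the labels or file headers, so no counting interval could be given.

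Start sites came from 13968 protein-coding genes of Ensembl release 115, and sequence from the RefSeq copy of the same assembly. Computation used Python 3.11.15, numpy 2.4.6, scipy 1.17.1, pandas 2.3.3 and matplotlib 3.10.9. Where several start site pairs met the rule, the one with the smallest summed distance from the summit to its 2 start sites was used. Annotated pairs were instead placed by the narrowest distance between any start sites of the 2 genes. The 2 measures can differ, as at mRpL23 and CG9004, with 227 and 24 bp. Replicate summits were linked within 100 bp. Motif matches counted within 50 bp of the summit on either strand. The assignment, linking and motif search were tested on simulated data.

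The 2 biological replicates are not said to come from separate collections, so their spread may be technical. No condition was compared and no test was made, because 2 replicates of 1 group allow none over samples. Members, lists and motifs were chosen with earlier results of these data known. Named genes were the 10 strongest and 5 weakest peaks, the shortest and longest pairs, the strongest of each list and motif, pairs with several summits, the widest rank differences, the shortest unoccupied pairs and those at the 250 bp limit. Peaks on dm3 were not used. One peak outside the 250 bp limit is not reported here.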

Additional observations from a re-analysis of the deposited data

How the results depend on the processing

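No paired analysis was possible because the 2 replicates form a single group and no result comes from a test. A value was taken as moved when it changed by more than the SD between the replicates' own lists, which is small for shares. With the start site distance at 100 bp or 500 bp, 358 or 1828 peaks met the rule (587 among the strongest 2503 lines) and 19.2% or 70.9% of pairs were occupied. The gene difference (genes in pairs minus genes outside) was 41.7 percentage points in the optimal set and 29.0 or 48.4 at these distances, 41.2 with 1 start site per gene, 39.0 with 1 line per interval, 26.7 with the strongest 2503 lines, 39.3 in the relaxed list and 43.8 for pairs up to 250 bp. Leaving out the pairs of repeated histone genes, chosen after seeing the data, gave 43.2 points. Pairs were occupied in 46.6% (1 line per interval), 29.9% (strongest 2503), 60.7% (relaxed list) and 68.0% (up to 250 bp). Summits lay between the start sites in 79.6% (100 bp), 80.6% (1 start site per gene), 84.3% (1 line per interval) and 88.1% (strongest 2503). The log2 signal ratio was 0.12 (100 bp), 0.16 (strongest 2503) and 0.91 against all other lines.

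The Motif 1 difference, pairs minus single genes, was -3.48 percentage points and negative throughout, at -1.76 (100 bp), -1.23 (500 bp), -4.90 (1 line per interval), -6.96 (strongest 2503), -1.51 (window of 100 bp) and -2.63 (window of 25 bp). The DRE difference of -0.423 points turned to 4.63 (100 bp), 0.888 (window of 100 bp) and 1.16 (window of 25 bp), and was -0.977 (500 bp), -0.0473 (1 start site per gene) and -1.12 (1 line per interval). Its cause was not tested. Replicate links held for 89.5% at 50 bp and 99.5% at 200 bp.

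With replicate 1 or 2 left out, the number of peaks was 982 and 1013, the log2 signal ratio 0.38 and 0.21, the share between start sites 81.1% and 80.3%, the Motif 1 difference -3.24 and -3.82, the DRE difference 0.382 and 0.154, the occupied pairs 47.3% and 49.8%, and the gene difference 41.1 and 41.8 points. Because depth is unknown, missing summits cannot be told from weak binding.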
